A study of Mus musculus with 2 samples.

Results

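The methylation of marker genes of blood cell lineages was followed in mouse liver DNA, namely Cd3e, Cd3d, Cd3g, Cd4 and Cd8a for T cells, Cd79a for B cells, Ptprc for all nucleated blood cells, and Spi1 and Csf1r for myeloid cells. The 9 genes were named as lineage markers out of 37310 annotated gene loci. Within them CpGs were chosen by coverage alone, with at least 5 reads in both libraries, from 5 kb upstream of a gene's 5′ end to its last base in mm9. Of 1004 listed positions in the 9 loci, 263 passed, out of 2654195 CpGs shared by both libraries over the whole series. The 2 cytosines of a CpG lie on opposite strands and were counted apart, so a count of CpGs below is a count of cytosines. At the edge of the coverage threshold, the 2 CpGs whose lower coverage was exactly 5 averaged 40% in KI and 43.8% in WT. The 12 CpGs just outside it, at 4 reads, averaged 17.4% in KI and 13.9% in WT. One CpG lies in the loci of both Cd3d and Cd3g, which are neighbours on chromosome 9.

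The KI group is 1 library of liver DNA pooled from 3 male mice aged 3 months, of strain C57BL/6 by the labels (the study's methods print C57BL/C), homozygous for the Uhrf1 YP187/188AA knock-in allele. That allele removes the binding of Uhrf1 to histone H3 methylated at lysine 9, and the genotype field of this sample reads knock out where its title reads KI. The WT group is 1 library from 3 male wild-type mice of the same age and strain, pooled in the same way. Both libraries come from reduced representation bisulfite sequencing (RRBS), in which DNA is cut by MspI at CCGG, treated with bisulfite and read, so that the share of reads that keep a C at a cytosine is its methylation level. The knock-in is in the germ line and not limited to 1 cell type, the mice were pooled, and the liver was not sorted into cell types. The assay gives no RNA level, so neither the allele nor the cell types of the liver could be checked by expression.

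CD3 epsilon, delta and gamma are the signalling chains that sit beside the T cell receptor on every mature T cell, and CD4 and CD8 alpha are the co-receptors that divide helper from cytotoxic T cells. Most cells of the liver are hepatocytes, which do not use these genes, and the rest include Kupffer cells (the resident macrophages), lymphocytes, endothelium and stellate cells. Lineage genes are commonly unmethylated at their regulatory sequences in the cells that use them and methylated in other cells, so in whole liver DNA a methylation level is a mean over all cells. A lower level in each cell and a larger share of cells with a low level cannot be told apart in pooled tissue DNA.

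The mm9 sequences of 5 groups of measured CpGs are shown. The first 4 hold CpGs on which the account of 4 called loci turns, and the last belongs to the stretch with the most CpGs of low methylation. Each is written 5′ to 3′ on the strand of its gene, and capitals mark the CpGs that were measured in both libraries.
Cd3e, chr9:44817788-44818030, minus strand, upstream of the gene: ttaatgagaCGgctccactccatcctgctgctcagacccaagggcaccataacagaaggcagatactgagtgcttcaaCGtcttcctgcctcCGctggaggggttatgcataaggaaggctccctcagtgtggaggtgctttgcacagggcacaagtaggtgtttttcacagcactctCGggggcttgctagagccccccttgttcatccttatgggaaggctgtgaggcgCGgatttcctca
Cd3g, chr9:44781682-44781981, minus strand, intron 3 and the start of coding exon 4: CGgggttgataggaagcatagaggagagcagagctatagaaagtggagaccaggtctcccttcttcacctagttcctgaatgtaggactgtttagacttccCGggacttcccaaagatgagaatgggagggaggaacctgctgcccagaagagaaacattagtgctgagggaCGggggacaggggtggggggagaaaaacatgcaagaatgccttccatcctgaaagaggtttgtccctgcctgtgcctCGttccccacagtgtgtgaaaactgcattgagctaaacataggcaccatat
Cd8a, chr6:71324542-71324689, plus strand, coding exon 2 and intron 2: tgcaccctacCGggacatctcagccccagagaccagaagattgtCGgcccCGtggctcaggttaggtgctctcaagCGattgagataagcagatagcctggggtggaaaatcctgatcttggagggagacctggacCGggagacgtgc
Ptprc, chr1:139996254-139996541, minus strand, intron 13 and coding exon 14: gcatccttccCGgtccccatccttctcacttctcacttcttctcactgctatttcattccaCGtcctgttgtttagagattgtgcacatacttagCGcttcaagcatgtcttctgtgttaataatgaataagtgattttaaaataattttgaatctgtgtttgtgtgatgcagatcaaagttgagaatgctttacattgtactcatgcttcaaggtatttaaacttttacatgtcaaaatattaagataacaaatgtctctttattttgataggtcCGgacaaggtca
Spi1, chr2:90919035-90919334, plus strand, upstream of the gene: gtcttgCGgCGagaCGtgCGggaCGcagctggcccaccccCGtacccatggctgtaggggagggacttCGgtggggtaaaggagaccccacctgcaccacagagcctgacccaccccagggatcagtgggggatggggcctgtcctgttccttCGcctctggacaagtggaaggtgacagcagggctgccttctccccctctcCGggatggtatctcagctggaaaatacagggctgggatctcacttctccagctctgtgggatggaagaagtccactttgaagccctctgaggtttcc

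The 243 bases of Cd3e hold no CCGG and 6 CpGs, of which the last capital CG is the CpG at -125 bp from the 5′ end that carried the largest difference of this stretch. Searched on both strands, they hold the ETS core AGGAAG at 2 places, and 26.4% of the 22380 windows at the same distance from other protein-coding genes hold it at least once. They hold no match to the RUNX core TGTGGT, the GATA core AGATAA, the E-box CACGTG or the TATA box TATAAA. The Cd3g and Ptprc sequences are poorer in CpGs, with 1.33 and 1.39 per 100 bases, than that of Cd8a with 4.05.

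The 263 CpGs of the 9 loci had a mean methylation level of 53.5% in KI and 58.0% in WT. The change was -4.50 points with a counting error of 0.696, and 147 CpGs were lower in KI, 87 higher and 29 equal. These are 55.9% lower and 33.1% higher. Of all 2654195 shared CpGs 45.9% were lower, 24.6% higher and 785078 equal. Over all shared CpGs the levels were 42.6% in KI and 45.6% in WT, a change of -2.99 points. The excess over the whole series did not hold at deeper coverage, since at a minimum of 10 reads the change was -3.08 points in the 9 loci and -3.05 over the series, and at 20 reads -2.90 in the 9 loci and -3.17 over the series. Coverage of the 263 CpGs had a median of 26 reads in KI (from 5 to 255) and 32 in WT (from 6 to 299), against 37 in both libraries over the series.

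Each library is 1 pool, so every test below compares 2 libraries and not 2 genotypes, and no spread between animals can be given. A single read can cover several CpGs and copies made by PCR were not told apart, so counting errors are too narrow and p-values too small. A CpG was called where Fisher's exact test gave a p below 0.05 after Benjamini-Hochberg adjustment across the whole table of shared CpGs and the levels differed by more than 25 points. By this rule 2 of the 263 CpGs were lower in KI, or 0.760%, where 1.09% of all shared CpGs were, and none was higher, where 0.0474% were. At an unadjusted p below 0.05 by the same Fisher's exact test there were 21 lower and 4 higher CpGs, 7.98% and 1.52% of the 263, where 9.05% and 1.18% of all shared CpGs were. A chi-square test called 1 lower and 0 higher, where it called 0.968% of all shared CpGs lower and 0.0357% higher. Both called CpGs, one in Cd3e and one in Ptprc, are described with their genes.

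CpGs in MspI sites were read differently from the others. At 42 MspI sites with both strands measured, the more methylated strand stood at 74.5% in KI and 76.1% in WT, and the less methylated strand at 5.39% in KI and 5.56% in WT. In WT, 40 of these 42 sites had a strand below 20%, compared with 8 of 73 CpG pairs outside MspI sites. Levels outside MspI sites are therefore given beside those of all CpGs. The 170 member CpGs outside MspI sites averaged 61.0% in KI and 67.1% in WT, a change of -6.14 points. Those of the series averaged 45.9% in KI and 49.2% in WT, a change of -3.36 points. A CpG with a low level cannot fall far. In WT 722630 of the 1777197 CpGs of the series were under 20%, and 24 of the 170. The 2 changes were not compared at the same starting level. Of the 73 pairs outside MspI sites, both strands were lower in KI in 30, both higher in 9 and opposite in 26.

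**Figure D1:**
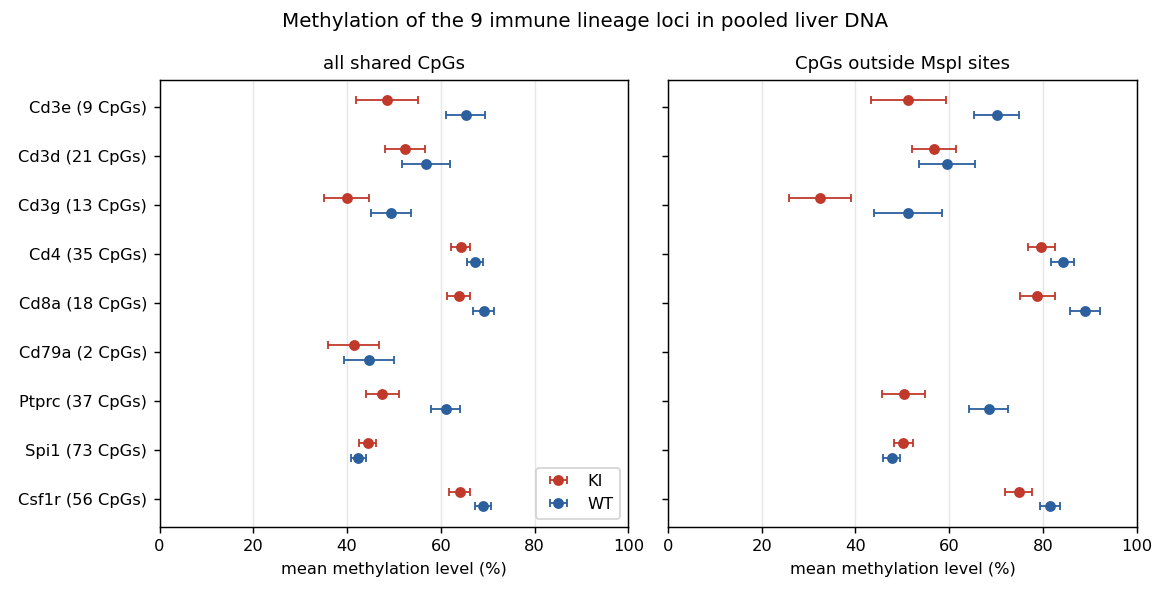
Mean methylation level in percent (x axis) of each of the 9 loci (y axis), KI above WT, over all shared CpGs on the left and over CpGs outside MspI sites on the right; bars are 95% counting intervals of 1 pooled library. Cd3e, at 48.5% in KI and 65.3% in WT, and Ptprc, at 47.5% in KI and 61.0% in WT, lie farthest apart in the left panel, and Spi1 is the only locus drawn with KI to the right of WT; Cd79a has no CpG outside MspI sites.

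A locus was called where both Fisher's exact test, applied to the sum of its reads, and the Cochran-Mantel-Haenszel test, stratified by CpG, passed 0.05 in the same direction after Benjamini-Hochberg adjustment over all loci with at least 5 shared CpGs. Of the 9 loci 8 could be tested, and Cd79a had too few CpGs. Cd3e, Cd3g, Cd8a, Ptprc and Csf1r were lower in KI, 5 of 8 or 62.5%, and none was higher. Over all 24596 testable gene loci 32.8% were lower and 1.04% higher. A locus with a low level cannot fall far, and among the 11631 loci at 40% to under 80% in WT, where all 8 lie, 46.9% were lower. That band was chosen after the values were seen. The median change was -5.16 points over the 8 loci, -1.15 over all loci and -3.01 in the band.

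**Figure D2:**
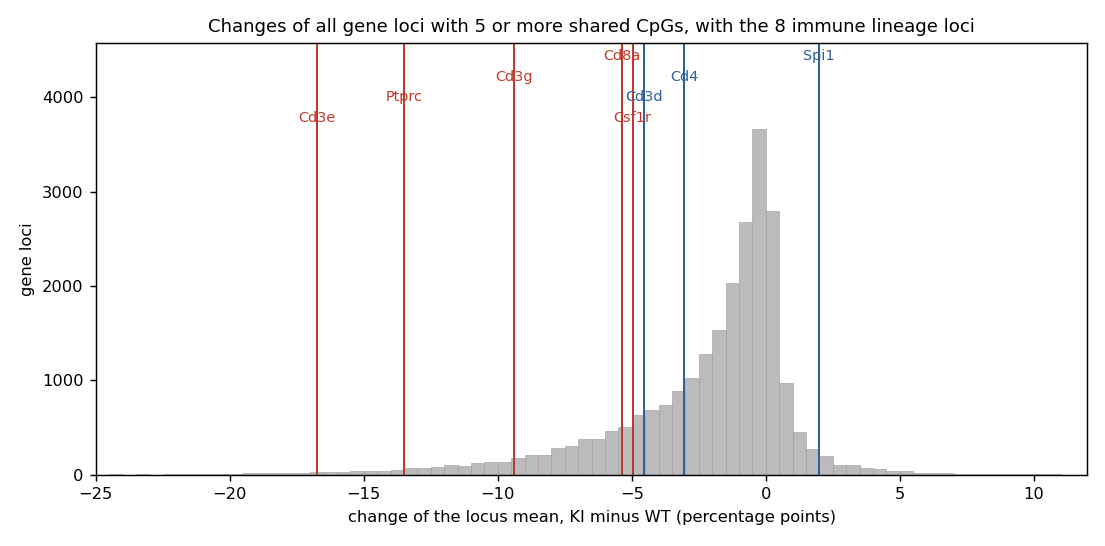
Number of gene loci (y axis) by the change of their mean methylation level, KI minus WT in percentage points (x axis); vertical lines mark the 8 tested immune lineage loci, red where both tests called them lower and blue where not. Cd3e and Ptprc lie in the left tail at -16.8 and -13.5 points, and Spi1 lies right of 0 at 1.97 points; 50 loci beyond the axis are not drawn.

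Cd3e, which encodes CD3 epsilon, a chain every T cell receptor complex needs to reach the surface, had the lowest change of the 9 loci. It lies on the minus strand of chromosome 9 (44806826 to 44817673) and its 9 shared CpGs averaged 48.5% in KI and 65.3% in WT. The change of -16.8 points had a 95% counting interval from -24.6 to -8.95. This change stood at the 0.825th percentile of all loci and at the 1.64th of those in the band of WT levels given above. Neither rank allows for counting error. Cd3e has 9 CpGs, where all tested loci have a median of 61 and those in the band 34. Both tests passed, with an adjusted p of 2.38e-04 by Fisher's exact test and 5.11e-05 by the Cochran-Mantel-Haenszel test. The call rested on both of its stretches of CpGs. Without the intronic stretch the Fisher adjusted p was 0.101 by the exact test, and without the upstream one 4 CpGs were left, too few to test.

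The upstream stretch of Cd3e is the sequence shown above and holds 5 CpGs from -347 to -125 bp, all read on 1 strand only, with 16 reads at every CpG in KI and 35 to 38 in WT. At -125 bp 7 of 16 reads were methylated in KI, 43.8% with a 95% Wilson interval from 23.1% to 66.8%, and 36 of 38 in WT, 94.7% from 82.7% to 98.5%. This CpG was called lower, with an adjusted p of 0.00581 by Fisher's exact test. At -178 bp the levels were 56.2% in KI and 71.1% in WT. At -264 bp they were 93.8% in KI and 97.1% in WT, and at -278 bp 68.8% in KI and 71.1% in WT. The farthest CpG, at -347 bp, was nearly unmethylated in both, with 1 of 16 reads in KI and 0 of 38 in WT, which allows a level of up to 7.89% by counting error. The change thus ran from -51.0 points nearest the gene to 6.25 points at the farthest CpG, and within 100 bp the level in this stretch ran from below 10% to above 90% in both libraries.

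In intron 2 of Cd3e, at 956 to 990 bp, 4 cytosines of 2 CpG sites were measured. The site outside MspI had 11 of 24 methylated reads on the plus strand in KI and 19 of 24 in WT. On the minus strand it had 8 of 18 in KI and 21 of 27 in WT. The drop was the same on both strands, -33.3 points, and neither cytosine alone passed the adjusted threshold by Fisher's exact test. With the reads of both strands summed, 19 of 42 in KI against 40 of 51 in WT, this site was called lower at an adjusted p of 0.0302 by the same exact test. Over the 9 loci 4 of 151 CpGs were called lower with strands summed, and 1.14% were over the series.

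Cd3g, which encodes CD3 gamma, averaged 39.9% in KI and 49.3% in WT over 13 CpGs, a change of -9.42 points (95% counting interval -15.9 to -2.94). Both tests passed, with an adjusted p of 5.88e-04 by Fisher's exact test and 7.10e-05 by the Cochran-Mantel-Haenszel test. Of its 13 CpGs 12 lie in coding exon 4 and intron 3, 6437 to 6835 bp into the gene, and 10 of these 12 were lower in KI. The 5 outside MspI sites, all lower, averaged 32.5% in KI and 51.2% in WT.

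The lowest p-values of Cd3g came from CpGs with over 100 reads. The last capital CG of the printed Cd3g sequence had 2 of 23 methylated reads in KI and 14 of 29 in WT on the plus strand. On the minus strand it had 21 of 108 in KI and 53 of 137 in WT, a change of -19.2 points at an adjusted p of 0.0438 by Fisher's exact test. Both strands of this site were lower, and the minus strand fell short of the 25 points that a call needed. The minus strand of the MspI site at 6634 bp, the second capital CG, was at 58.8% in KI (70 of 119 reads) and 81.3% in WT (113 of 139), with an adjusted p of 0.00668 by Fisher's exact test and a change of -22.5 points. Its plus strand moved the other way, 41.5% in KI and 27.3% in WT. The first capital CG, also in an MspI site, had 10 of 41 reads methylated in KI and 1 of 20 in WT on the minus strand. Neither of these 2 rises passed, with adjusted p of 0.964 and 0.64 by Fisher's exact test. The next minus-strand CpG outside MspI sites had 27 reads in KI and 17 in WT. Reads from the 2 sides of an MspI site were not told apart, so no gain is read from these levels.

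Cd3d encodes CD3 delta and lies beside Cd3g on the opposite strand of chromosome 9 (44789876 to 44795135). Its 21 CpGs averaged 52.3% in KI and 56.9% in WT, and neither test passed (adjusted p of 0.994 by Fisher's exact test and 1 by the Cochran-Mantel-Haenszel test). The change of -4.54 points had an interval from -11.2 to 2.12, which spans 0, and among its 12 CpGs with at least 20 reads it was 5.24 points. Its CpGs went both ways within a stretch of 482 bases that runs from intron 4 into exon 5. On the minus strand of coding exon 5, 3 neighbouring CpGs were at 96.2%, 88.5% and 80.8% in KI, against 61.3%, 61.3% and 58.1% in WT. The 5 CpGs outside MspI sites in the untranslated part of the same exon were all lower, from 14.3% to 70% in KI and from 40% to 88.9% in WT. The largest of these differences, 34.9 points higher in KI, had an adjusted p of 0.0857 by Fisher's exact test.

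Among the co-receptors, Cd8a was lower by both tests and Cd4 by 1 of 2. Cd8a, on chromosome 6 (71323421 to 71329165), averaged 63.8% in KI and 69.2% in WT over 18 CpGs. The change was -5.35 points (-8.64 to -2.07), with an adjusted p of 0.0416 by Fisher's exact test and 0.00424 by the Cochran-Mantel-Haenszel test. Most of it came from the stretch in coding exon 2 and intron 2 shown above. There the 6 CpGs outside MspI sites were each lower, from 59.5% to 81.1% in KI and from 72.7% to 92.3% in WT, with means of 68.9% in KI and 84.1% in WT. The lowest of the 6 in KI were the cytosines of the fourth capital CG, in intron 2, at 61.1% and 59.5% in KI and 80.3% and 88.5% in WT. Upstream, at -3810 to -3580 bp, the 4 CpGs outside MspI sites stood near full methylation, at 93.6% in KI and 96.2% in WT. Without the exonic stretch Cd8a was not called, at -1.29 points and a Fisher adjusted p of 0.862 by the exact test. With reads thinned to equal coverage the change was -5.24 points and the Fisher adjusted p 0.201 by the exact test.

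Cd4, whose product binds class II histocompatibility molecules, lies on the minus strand of chromosome 6 (124814710 to 124838239). Its 35 CpGs averaged 64.2% in KI and 67.3% in WT, a change of -3.04 points (-5.69 to -0.385). The Cochran-Mantel-Haenszel test passed at an adjusted p of 1.03e-04 and Fisher's exact test on the summed reads did not, at 0.15, so Cd4 was not called. Over the 20 CpGs outside MspI sites, at 79.7% in KI and 84.2% in WT, both tests passed, with 0.0165 by Fisher's exact test and 4.20e-04 by the other. The difference was -11.1 points outside MspI sites in intron 1, -5.56 around coding exon 8 and -1.99 in the last exon. The depth was greatest around exon 8, where the 2 CpGs with over 200 reads outside MspI sites were at 82.7% and 88.0% in KI and 88.1% and 93.5% in WT. In the last exon single CpGs differed more, in both directions. At 22101 bp the level was 72.2% in KI and 45.8% in WT, and at 22154 bp 61.1% in KI and 87.5% in WT, with 18 reads in KI at each.

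Over the 95 CpGs of the 5 T cell genes the mean was 56.7% in KI and 62.5% in WT, a change of -5.73 points. Outside MspI sites it was 65.8% in KI and 73.9% in WT, and 43 of 57 CpGs, or 75.4%, were lower in KI, 14 higher and none equal. Over the series outside MspI sites, 795113 of 1777197 CpGs were lower, or 44.7%, 395391 higher and 586693 equal. In WT 722630 of these 1777197 CpGs were under 20%, and 1 of the 57. The shares were not compared at the same starting level. In each library 2 of the 95 CpGs were fully methylated.

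Cd79a encodes the alpha chain that signals beside the B cell receptor. It had only 2 shared CpGs, the strands of 1 MspI site in its last, untranslated exon on chromosome 7, at 4773 bp and within 2 kb of the gene Arhgef1. The plus strand had 56 of 73 methylated reads in KI and 49 of 57 in WT. The minus strand had 6 of 99 in KI and 2 of 62 in WT. Neither differed by Fisher's exact test (adjusted p of 1 for both), and the B cell lineage is not represented among the 9 loci beyond this site.

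Ptprc encodes CD45, the membrane phosphatase carried by all nucleated blood cells. The gene spans 139959438 to 140071882 on the minus strand of chromosome 1. Its 37 CpGs averaged 47.5% in KI and 61.0% in WT, and 27 were lower, 4 higher and 6 equal. The change of -13.5 points (-18.2 to -8.74) stood at the 1.85th percentile of all loci and the 3.62nd of those at 40% to under 80% in WT. It had the lowest p-values of the 9 loci, with an adjusted p of 5.58e-08 by Fisher's exact test and 1.34e-10 by the Cochran-Mantel-Haenszel test. The call held without any 1 of its 4 stretches, with changes from -18.2 to -9.24 points, and at a minimum of 10 reads, with -10.9 points.

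The Ptprc CpGs lie deep inside the gene. In intron 2, at 38673 to 38864 bp, 13 of 14 CpGs outside MspI sites were lower and 1 higher, with means of 53.6% in KI and 70.5% in WT. They ran from 30% to 80% in KI and from 41.2% to 89.5% in WT, at 24 to 40 reads in KI and 17 to 38 in WT, and no single cytosine there was called. With strands summed, the site at 38808 bp, 37 of 65 methylated reads in KI and 47 of 56 in WT, was called lower at an adjusted p of 0.0358 by Fisher's exact test. Around coding exon 5, with 7 to 10 reads in KI and 7 to 18 in WT, the change of -0.873 points had a counting error of 6.28. A lone CpG in intron 12 had almost no methylated reads, 0 of 42 reads in KI, which allows a level of up to 7.14% by counting error, and 1 of 32 in WT.

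The largest differences of all 263 CpGs were in the Ptprc sequence shown above, at the border of intron 13 and exon 14. All 8 CpGs there were lower in KI, and the 4 outside MspI sites averaged 40.7% in KI and 85.4% in WT. The second capital CG had 2 of 7 methylated reads on the minus strand in KI and 13 of 13 in WT, and was called lower at an adjusted p of 0.0466 by Fisher's exact test. Its plus strand, more deeply read, had 12 of 35 in KI and 37 of 56 in WT. The third capital CG had 1 of 7 in KI and 11 of 13 in WT on the minus strand, the only member CpG above 70% in WT and below 20% in KI, yet on its plus strand 30 of 35 in KI and 50 of 55 in WT. The strands of this site stood far apart in KI and close together in WT, and all minus-strand CpGs of the stretch had 7 reads in KI.

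**Figure D3:**
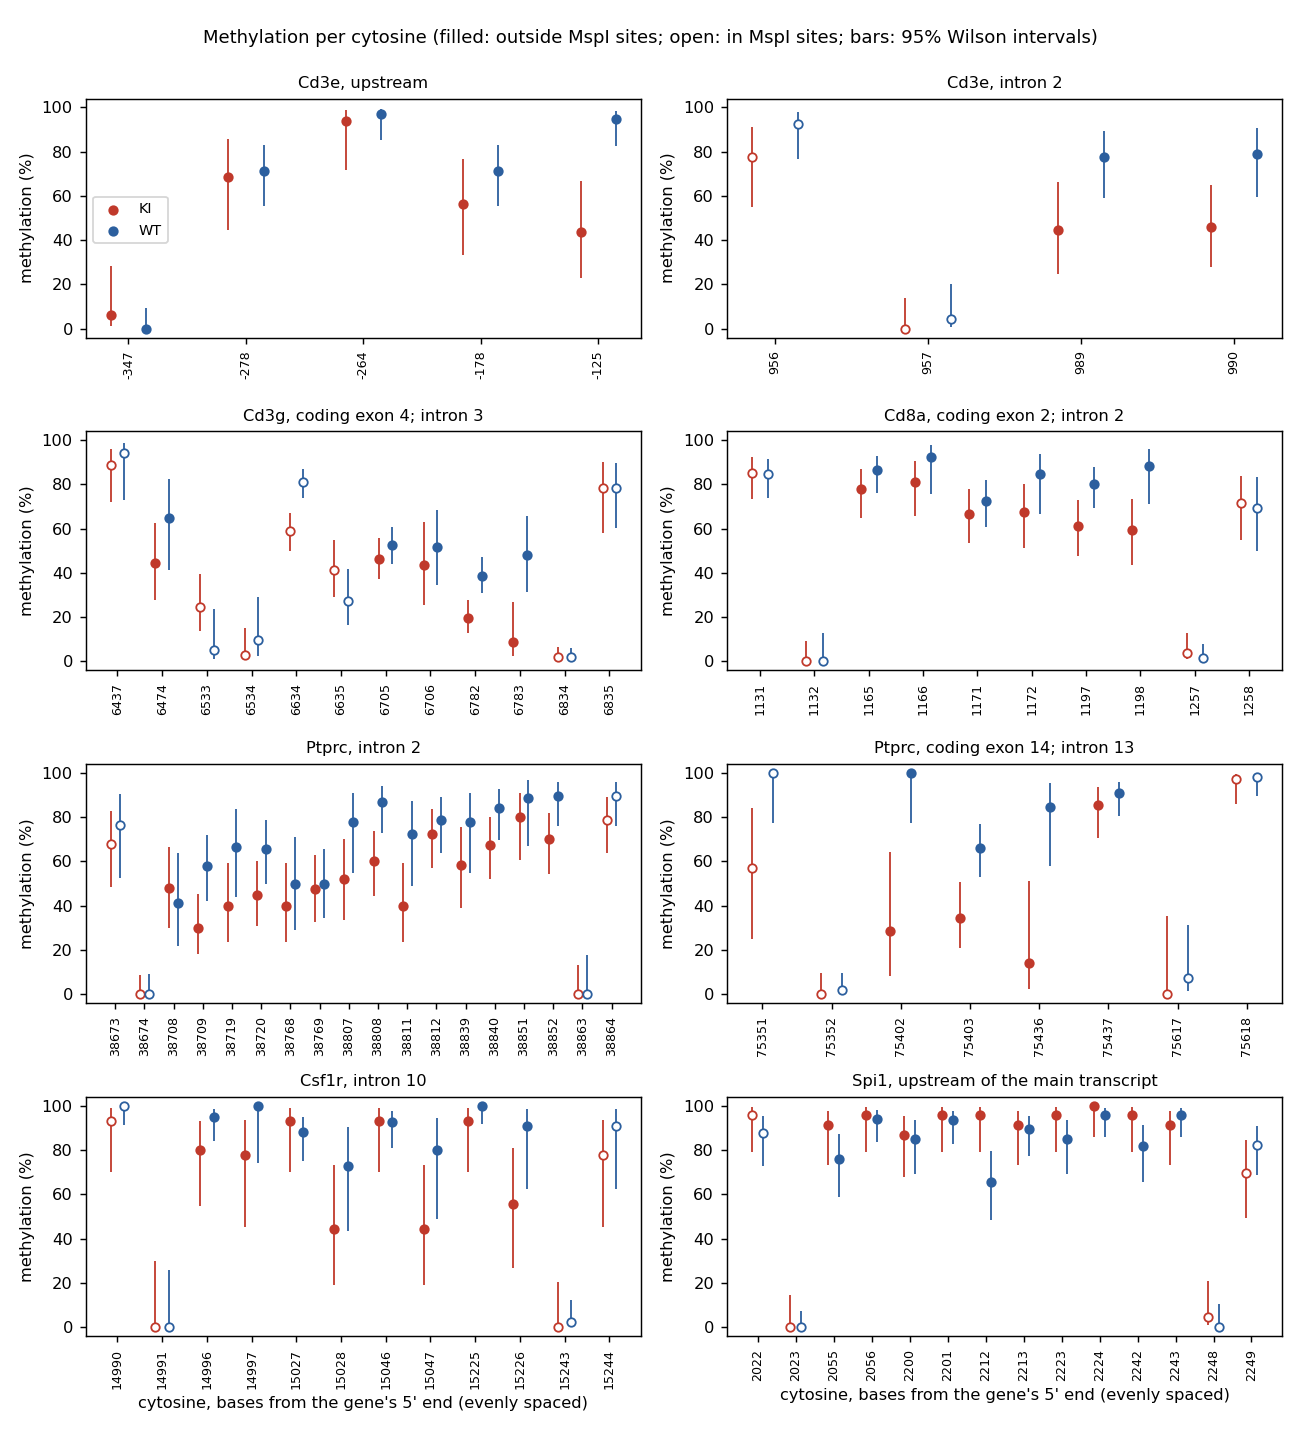
Methylation level in percent (y axis) of every shared cytosine, KI left of WT, in 8 stretches of the loci; the x axis gives the distance in bases from the gene's 5′ end at even spacing, bars are 95% Wilson intervals, and open points lie in MspI sites. The 8 were picked for display from 27 stretches, and Spi1 is drawn by 1 stretch, at 2022 to 2249 bp. In Cd3e at -125 bp the KI level of 43.8% stands below 94.7% in WT with intervals that do not overlap. In the drawn Spi1 stretch the KI points lie mostly above those of WT, while over the whole Spi1 locus 24 CpGs were lower and 37 higher.

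Spi1, the gene of the transcription factor PU.1 that directs myeloid and B cell development, was the exception among the 8 tested loci. It is annotated in mm9 as Sfpi1 on chromosome 2 (90922547 to 90955913), and its main transcript begins 13706 bp after the first annotated 5′ end. Its 73 CpGs averaged 44.4% in KI and 42.4% in WT, and 24 were lower, 37 higher and 12 equal. The change of 1.97 points had an interval from -0.455 to 4.40. With every read at the same weight the sign turned, 46.3% in KI against 52.0% in WT, and Fisher's exact test on the summed reads gave an adjusted p of 0.00111 for lower in KI, while the Cochran-Mantel-Haenszel test gave 0.309. The highly methylated stretch at 30823 bp took 462 of 1752 reads in KI and 852 of 2359 in WT, and without it the Fisher adjusted p was 0.296 by the exact test. Spi1 was not called.

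The stretches of Spi1 differed in level more than those of any other member. The upstream stretch shown above, -3520 to -3213 bp, held 23 CpGs at 8.97% in KI and 7.76% in WT, and 7 CpGs in the untranslated last exon held 5.26% in KI and 1.79% in WT. Between them the CpGs at 2022 to 2249 bp stood at 79.2% in KI and 73.7% in WT. There 9 of the 10 CpGs outside MspI sites were higher in KI, with means of 93.9% in KI and 86.1% in WT, a change of 7.79 points with a counting error of 2.67. The largest difference, 22 of 23 methylated reads in KI and 21 of 32 in WT, had an adjusted p of 0.169 by Fisher's exact test. Around coding exon 3, at 17117 to 17335 bp from the main transcript's start, 12 CpGs outside MspI sites were split evenly, 6 lower and 6 higher, at 86.0% in KI and 87.7% in WT.

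Csf1r encodes the receptor for colony stimulating factor 1, on which macrophages and Kupffer cells depend. On chromosome 18 (61265226 to 61291803), its 56 CpGs averaged 64.0% in KI and 69.0% in WT. The change was -4.98 points (-7.81 to -2.15), and the adjusted p was 0.00224 by Fisher's exact test and 0.00474 by the Cochran-Mantel-Haenszel test. This call was less steady than that of Ptprc. The change was -2.33 points at 10 reads, still called, and -2.67 at 20 reads, not called, and it was -2.70 and not called without the intron 10 stretch. The call was also lost without the exon 2 to 3 stretch, at -6.11 points, and with reads thinned to equal coverage, at -4.94 points.

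Within Csf1r the change was largest in intron 10, at 14990 to 15244 bp, where CpGs outside MspI sites averaged 72.8% in KI and 90% in WT. The minus strand there had 9 reads at every CpG in KI, at 77.8%, 44.4%, 44.4% and 55.6%, against 100%, 72.7%, 80% and 90.9% in WT. The plus strand, with 15 reads in KI, was at 80% for 1 CpG and 93.3% for 3, against 88.1% to 100% in WT. The drop lay mainly on the strand with fewer reads. Around coding exons 2 and 3, the deepest part, 16 of 24 CpGs were lower and the means were 57.2% in KI and 60.7% in WT. The CpGs upstream of the gene, -1301 to -1200 bp, stood at 92.1% in KI and 98.3% in WT outside MspI sites. The stretch at the 3′ end, which also lies inside the gene Hmgxb3, changed by -1.56 points with a counting error of 2.86.

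The 129 CpGs of the 2 myeloid genes averaged 52.9% in KI and 54.0% in WT, a change of -1.04 points with a counting error of 0.940. Of these CpGs 57 were lower and 53 higher, or 44.2% and 41.1%, where 45.9% and 24.6% of all shared CpGs were. That the T cell and myeloid genes differ in their change was not tested, since each lineage is represented by few loci.

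**Figure D4:**
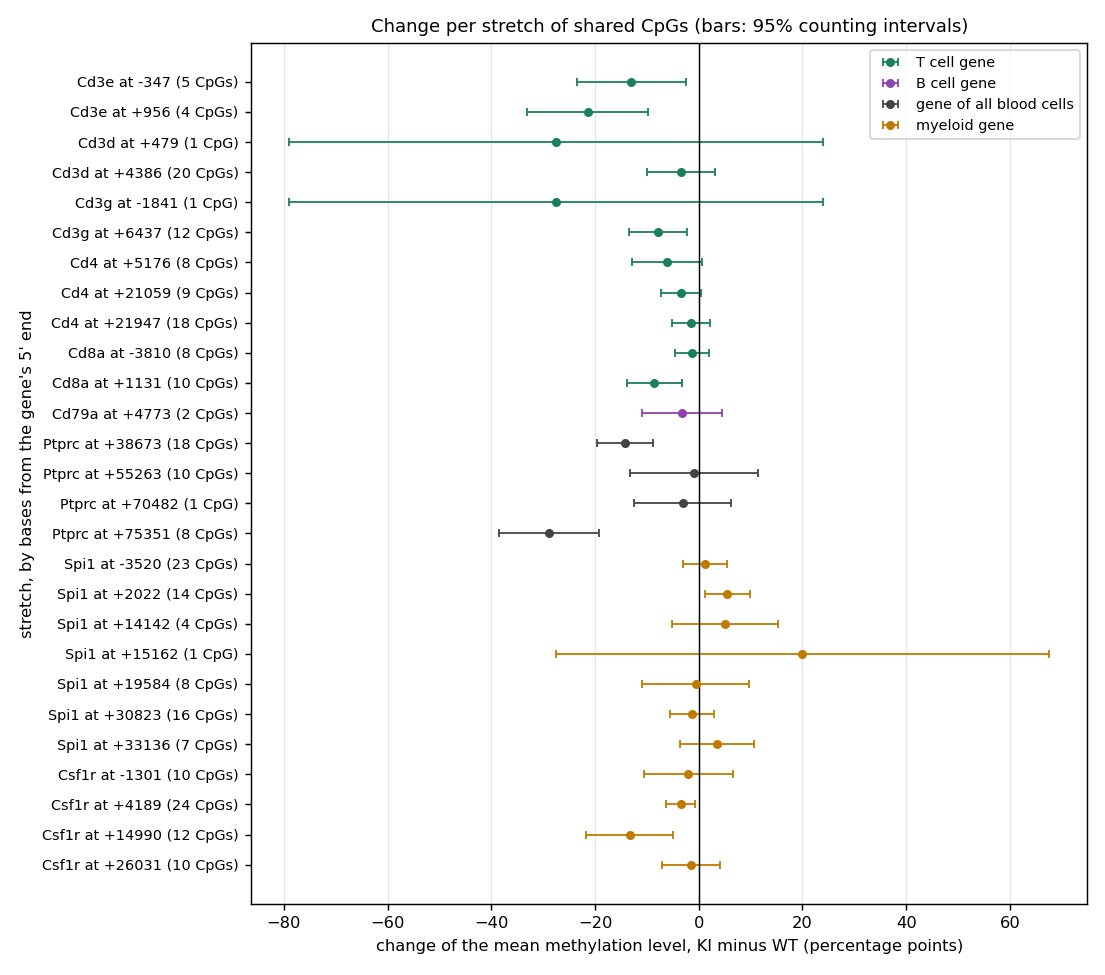
Change of the mean methylation level, KI minus WT in percentage points (x axis), of the 27 stretches of shared CpGs in the 9 loci (y axis, named by gene and distance from its 5′ end), coloured by lineage, with 95% counting intervals. The intervals of both Cd3e stretches, the larger Cd3g stretch, the exonic Cd8a stretch, 2 Ptprc stretches and 2 Csf1r stretches lie below 0, and that of the Spi1 stretch at 2022 bp lies above it.

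A stretch is a run of shared CpGs with no gap over 500 bp. Where a gene had several stretches, their changes varied in size, and whether stretches of a gene differ from each other was not tested. In Cd8a, Ptprc and Csf1r, stretches with a lower level in KI lay in the same gene as stretches whose counting interval spanned 0. Among stretches of more than 1 CpG, the largest change of Cd3e lay in intron 2 and that of Csf1r in intron 10. That of Cd8a lay in coding exon 2 and intron 2, and that of Ptprc in intron 13 and coding exon 14. Cd3g had only 1 such stretch, and no pattern is read from these places. In Cd3e 1 upstream stretch was lower as well. Fixed windows of 1 kb were kept with at least 5 CpGs and a mean of at least 10 reads per CpG in both libraries. Among them the largest change of a member was -28.9 points in Ptprc, then -13.3 in Csf1r, -8.61 in Cd8a, -6.94 in Cd3g, 5.53 in Spi1, -3.39 in Cd3d and -3.08 in Cd4. Single CpGs had as few as 7 reads in KI in the Ptprc window and 9 in the Csf1r window. Cd3e and Cd79a had no such window. Only 10 of the 263 CpGs lay within 1 kb of a gene's first annotated 5′ end, 9 in Cd3e and 1 in Cd3d. Another 4, all in MspI sites, lay 436 to 560 bp after the start of the main Spi1 transcript. These 4 averaged 40.3% in KI and 35.2% in WT, a change of 5.08 points with a counting error of 5.22. The promoters of Cd3g, Cd4, Cd8a, Cd79a, Ptprc, Spi1's first transcript and Csf1r were not covered by CpGs shared at this depth.

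Further genes of the same and of other liver cell types, from lists drawn up with earlier results of these data known, give the scale of these values. Of 23 measured T cell genes other than the members, 13 were lower by both tests and none higher, with a median change of -2.66 points, from -5.60 in Cd2, an adhesion receptor of T cells, to 0.763 in Zbtb7b, the helper lineage factor. Of 16 B cell genes 8 were lower and none higher, with a median of -2.53 points. They ran from -8.10 in Tnfrsf13c, the receptor for the B cell survival factor BAFF, to 6.48 in Cd79b, the partner of Cd79a, which was not called. Of 5 NK cell genes 2 were lower, led by Prf1, the gene of perforin, with -8.35 points.

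Of 28 myeloid and Kupffer cell genes 17 were lower and 1 higher, with a median of -4.31 points. The lowest were Fcer1g, the common gamma chain of Fc receptors, at 44.9% in KI and 58.5% in WT, and Vsig4, the complement receptor of Kupffer cells, at 56.3% in KI and 68.5% in WT. Csf2rb, a subunit shared by cytokine receptors, was the gene called higher, with 56.7% in KI and 52.4% in WT. Of 22 genes of all blood cells 13 were lower and none higher, with a median of -2.28 points and the lowest change, -7.70, in Spn, which encodes CD43.

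Lower calls were about as common in lists of other liver cells. Of 21 hepatocyte genes 11 were lower and none higher, with a median of -2.51 points. Ttr, the gene of transthyretin, changed by -17.8 points over 11 CpGs, further in value than any of the 9 loci. Its counting error was 5.75 points, and that of Cd3e, at -16.8 points, was 3.99, so the order of these 2 is not settled. Of 16 endothelial and stellate cell genes 10 were lower and none higher, with a median of -2.35 points. The share called lower was 56.5% in T cell genes, 60.7% in myeloid genes, 52.4% in hepatocyte genes and 62.5% in endothelial and stellate genes. Cd3e and Cd3g changed by more than every other gene of the T cell list and Ptprc by more than every other gene of all blood cells, and Cd4, Cd3d, Cd8a and Csf1r lay within the range of the lists of their own lineage. This ranking does not allow for counting error. Cd3e and Cd3g have 9 and 13 CpGs, where the T cell list has a median of 54. The Cd3g interval, -15.9 to -2.94, holds the change of Cd2, -5.60 points. The share of blood cells in each pool was not measured, and its part in these differences was not tested.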

How the data were processed

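Liver DNA of 3 pooled mice per genotype gave 1 RRBS library each. Per the labels and the study's methods, the authors aligned reads uniquely to mm9 using Bismark, given as version 0.12.20 by the submitters. Trimming and duplicate removal are not given in the sources used here. Each deposited file gives, for a CpG cytosine, a read count and the percent of methylated reads, from which whole methylated reads were recovered at all positions. The files list 6452685 positions in KI and 7231934 in WT, and coverage summed over these positions was 173109895 in KI and 192144002 in WT, where a read counts once for each CpG it covers. Strands followed from the genome sequence, and genes came from the GENCODE annotation of mm9, where Spi1 is Sfpi1 by a RefSeq synonym.

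CpGs were kept at 5 or more reads in each library. A locus mean gives each cytosine the same weight, and its error covers counting only. Calls used Fisher's exact and Cochran-Mantel-Haenszel tests with Benjamini-Hochberg adjustment (scipy 1.17.1, numba 0.67.0, Python 3.11.15). The code was run on simulated counts drawn independently for each CpG. Such counts leave out reads that cover several CpGs and copies made by PCR, so they cannot show how far the p-values are too small. Members and gene lists were chosen with earlier results of these data known. All members, every called member CpG, and the extremes and leading called loci of each list were to be named. Alternatives were coverage of 10 or 20 reads, strands summed, no MspI sites, other regions, weights, tests and thresholds, thinned reads and, chosen after seeing the data, each stretch left out in turn.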

Additional observations from a re-analysis of the deposited data

How the results depend on the processing

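The mean change over the 263 CpGs, -4.50 points, was -3.08 with at least 10 reads, -2.90 with at least 20 reads, -3.05 with strands summed, -6.14 without MspI sites and -17.8 over the 10 CpGs within 1 kb of a gene's first annotated 5′ end. It was -5.14 without the upstream 5 kb and -5.23 with every read at the same weight. The count of CpGs called lower, 2, was 1 with at least 10 reads (1.35% of all CpGs kept were called), 1 with at least 20 reads (another CpG, in Cd3g; 1.74% of all), 1 with a chi-square test (0.968%), 4 of 151 with strands summed (1.14%) and 4 with a difference above 10 points (2.66%), and no setting called a CpG higher. The 5 loci called lower were 3 of 7 with at least 20 reads (33.6% of all gene loci were lower) and 1 of 1 within 1 kb of a gene's first annotated 5′ end (8.73%). They were 4 to 6 under every other alternative. There were 4 with a change of at least 5 points (12.6% of all gene loci), 4 with thinned reads (26.5%) and 4 of 7 without the upstream 5 kb (31.2%). There were 5 with at least 10 reads (33.2%), 5 with strands summed (30.5%) and 6 without MspI sites (33.9%). Fisher's exact test alone and the Cochran-Mantel-Haenszel test alone each gave 6 of 8, where they gave 40.7% and 46.5% of all gene loci. Of 90 alternative values for single loci, 77 brought no change of a call, 7 lost a call and 2 gained one, both for Cd4. Another 4 left too few CpGs of Cd3e or Cd3g to test, and none reversed a call. The 77 include values that could not change a call, namely the 6 of Cd79a, which was never tested, and those of Cd3d left with 1 CpG. Values with every read at the same weight kept the main tests, and there Spi1 turned from 1.97 to -5.67 points. The cause of these shifts was not tested. Leaving out replicates was not possible with 1 library per genotype. No paired analysis was possible because each genotype has 1 pooled library. Depth limits what single CpGs show, since 112 of the 263 had under 20 reads in a library.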
